A study of Mus musculus with 18 samples.

Results

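The genes described here encode the proteins of the cytoplasmic ribosome. They were chosen by symbol: every gene named Rpl or Rps followed by a number and optional letters, together with Rplp0, Rplp1, Rplp2 and Rpsa, and without the Rps6k kinases. The rule found 89 of the 19919 genes listed in the deposited tables. Of these, 31 encode proteins of the small subunit and 46 proteins of the large subunit, and these 77 are called the core genes below. Another 10 are paralogues of core genes, Rpl32l was assigned to no class, and Rps19bp1 encodes a nucleolar protein that is not a part of the ribosome.

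Poly(A) RNA of 3 sorted mouse bone marrow progenitor populations was sequenced: multipotent progenitors (MPPs), common dendritic cell (DC) progenitors lacking CD115 (CD115- CDPs) and common lymphoid progenitors (CLPs). Each population had 3 libraries from WT mice and 3 from KO mice, 18 in all. WT mice were Trim33 fl/fl, and KO mice were Trim33 fl/fl Cre-ERT2, both on C57BL/6 and 6 to 8 weeks old. Tamoxifen, which activates the Cre, was given to both genotypes at 2 mg daily over 5 days, and cells were taken after 7 further days. Trim33 encodes a nuclear protein of the tripartite motif family, and the comparison asks what its loss changes in the progenitors of DCs. The inducible Cre acted in the whole animal and the WT mice carried no Cre, so loss of Trim33 in these cells, loss in other tissues and Cre activity itself cannot be told apart. The labels do not say whether the replicates came from separate animals. The study's methods describe replicates as biological in all experiments except ChIP-qPCR. The p-values measure the spread between these samples. The abundance of each gene was given as FPKM, a read-derived level corrected for transcript length and library depth. The size of 1 read, recovered from low values, puts the depth at about 19200000 to 21200000 mapped reads per library.

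As background, a ribosome holds 1 copy of nearly every ribosomal protein, and cells make these proteins in matched amounts. Most of their mRNAs begin with a run of pyrimidines, the 5′ terminal oligopyrimidine (TOP) tract, through which the mTORC1 pathway and the RNA-binding protein LARP1 set their translation and stability. Blood cell formation is sensitive to the supply of ribosomes: loss of 1 copy of RPS19, RPL5 or RPL11 causes Diamond-Blackfan anaemia, in which red cell precursors fail.

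The tract is visible in the genome around the annotated starts. RefSeq promoter windows for the mouse assembly GRCm38.p6 were matched by gene ID for 68 of the 89 genes and for 57 of the 77 core genes. The following stretches, of at most 30 bases, were chosen to show the tract in proteins of both subunits and to set Rpl22 beside its paralogue Rpl22l1 and Rps27 beside Rps27l. Capitals mark the longest run of C and T around the annotated start.

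Rps6: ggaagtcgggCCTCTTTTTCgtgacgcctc

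Rps18: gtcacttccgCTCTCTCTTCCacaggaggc

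Rpl14: gcagggcgggCCCTCTCTCTTCTCgctgag

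Rpl35: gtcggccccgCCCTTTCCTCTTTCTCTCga

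Rpl38: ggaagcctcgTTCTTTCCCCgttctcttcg

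Rplp2: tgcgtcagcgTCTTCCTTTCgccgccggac

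Rps27: tccgctttcgCTCCTTTCCggcggtgacg

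Rps27l: cctctccaCTCCTCCCCgccgcctcta

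Rpl22: atcagcgctgCTTCTggaatgttcc

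Rpl22l1: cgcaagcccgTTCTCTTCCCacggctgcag

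These lie at chr4:86857349-86857378 for Rps6, chr17:33955648-33955677 for Rps18, chr2:39005119-39005148 for Rpl35 and chr3:90213632-90213660 for Rps27, all on the minus strand. On the plus strand, they lie at chr9:120571499-120571528 for Rpl14, chr11:114668568-114668597 for Rpl38, chr7:141447636-141447665 for Rplp2, chr9:66946066-66946092 for Rps27l, chr4:152324416-152324440 for Rpl22 and chr3:28805499-28805528 for Rpl22l1. Rpl35 had a run of 18 letters and Rpl14 a run of 14, whereas the longest run at the Rpl22 start was 5. A run of at least 8 letters C or T on the gene's strand, between 20 bases before and 30 after an annotated start, was present in 32 of the 57 core genes (56.1%) and in 21.5% of 27025 genes with a window. The letters CCGGAAG, the core of sites bound by ETS factors such as GABP, occurred on either strand of the window from 250 bases before to 50 after the start in 42.1% of the core genes and in 9.93% of all genes. The letters AAGATGG, the core of YY1 sites, occurred there in 15.8% and 7.28%. Such matches describe the sequence only.

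Trim33 itself (chromosome 3, 103279293 to 103358770), read over all its exons, did not separate the genotype groups. Its levels were 10.4, 10.1 and 8.78 FPKM in MPPs labelled WT and 9.71, 11.7 and 4.80 in MPPs labelled KO. In CDPs they were 14.3, 15.2 and 8.27 in WT and 9.64, 8.28 and 4.03 in KO, and in CLPs 12.4, 7.01 and 8.86 in WT and 7.52, 5.60 and 7.66 in KO. The groups overlapped in every population, and limma without pairing gave adjusted p-values of 0.63, 0.528 and 0.255 for the KO-WT differences in MPPs, CDPs and CLPs. Between libraries with the same number, KO lay below WT for every number in CDPs and in CLPs. In MPPs it did not for every number, with 11.7 in KO against 10.1 in WT. A gene-level FPKM also counts reads outside the deleted part, so this level does not check the labels, and KO below means the libraries labelled KO.

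The sorted populations carried their defining markers with some exceptions. Il7r, the marker of lymphoid progenitors, was at 63.0, 32.6 and 33.9 FPKM in WT CLPs, and Kit at 71.6, 74.8 and 71.7 in WT MPPs. Csf1r, which encodes CD115, was at 57.0, 39.1 and 137 FPKM in WT CDPs, although these cells were sorted as lacking that protein. The CDP libraries numbered 3 stood apart in both genotypes. Their 9 neutrophil markers summed to 4510.3 FPKM in WT and 4443 in KO, against 695 to 1063 in the other CDP libraries, with Mpo the most abundant gene and none of the markers at 0. The KO-WT difference in share and the counts of ribosomal protein genes in CDPs are therefore also given without both of these libraries. This alternative was added after the data were seen. Counts between WT populations are given without WT library 3. The CLP libraries numbered 1 stood apart as well. Their 12 genes of activation and stress summed to 5111 FPKM in WT and 5356 in KO, against 8189 to 12122 in the other CLP libraries, with Hspa8 the most abundant gene in all 6. Their B cell markers summed to 308 FPKM in WT and 245 in KO, against 571 to 885. The KO-WT difference in share and the counts in CLPs are likewise given without both, also an alternative added after the data were seen. Counts between WT populations are given without WT library 1. Values of named genes and of other lists keep all libraries unless stated.

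Ribosomal protein genes made up a large part of the mRNA pool of every library. Their summed FPKM was 25.5%, 25.4% and 27.5% of the total in the 3 WT MPP libraries and 29.4%, 27.1% and 27.3% in the KO MPP libraries. It was 25.5%, 27.3% and 24.2% in WT CDPs and 28.6%, 32.7% and 29.2% in KO CDPs. It was 18.9%, 20.1% and 21.9% in WT CLPs and 23.0%, 25.8% and 25.0% in KO CLPs. The WT CLP libraries were the lowest of the 18, all KO CDP libraries lay above all WT CDP libraries, KO library 2 being the highest of all, and in MPPs the groups overlapped. The group means were 26.1% ± 1.18 (SD, n = 3) against 27.9% ± 1.27 in MPPs, 25.7% ± 1.58 against 30.1% ± 2.21 in CDPs and 20.3% ± 1.53 against 24.6% ± 1.42 in CLPs, WT first. The difference between genotypes was 1.80 percentage points in MPPs, 4.47 in CDPs, 4.21 in CDPs without the libraries numbered 3, and 4.31 in CLPs, or 4.39 in CLPs without the libraries numbered 1. With quantile normalization, which gives every library the same distribution of values, it was 1.03 in CDPs and 1.72 in CLPs. Of the 100 most abundant genes in each library, 59 to 71 were ribosomal protein genes.

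**Figure D1:**
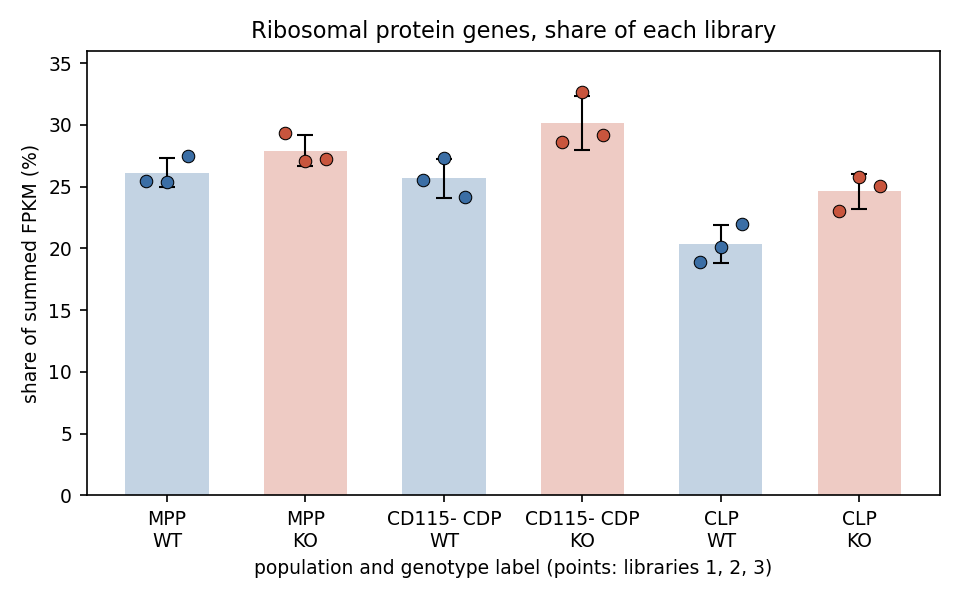
Share of the summed FPKM (percent, vertical axis) taken by the 89 ribosomal protein genes in each of the 18 libraries, by population and genotype, with the group mean and SD (n = 3). The 3 WT CLP libraries sit lowest, at 18.9% to 21.9%, and the 3 KO CDP libraries highest as a group, at 28.6% to 32.7%.

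Levels of single core genes differed widely within a library. Rplp1, a protein of the stalk that binds elongation factors, was the most abundant core gene, with a mean of 3748 FPKM over the 18 libraries. It was followed by Rps2 (3278 FPKM), Rps9 (3132 FPKM) and Rpl41 (3122 FPKM). The least abundant were Rpl37 (556 FPKM), Rps20 (325 FPKM), Rpl22 (257 FPKM) and Rps15a (89.8 FPKM). Rps15a, whose annotated transcripts averaged 5179 bases, held about 6374 reads at its lowest value of 60.65 FPKM. The part of that length in its low FPKM was not tested. The low value of Rps15a also stood beside 246.9 FPKM for the listed pseudogene Rps15a-ps6, and Rpl31-ps12 and Rpl14-ps1 also exceeded 100 FPKM. RSEM could have divided reads between such near-identical copies, so the levels of Rps15a, Rpl31, Rpl14 and of the retrogene pairs Rpl37 and Rpl37rt and Rps27 and Rps27rt are uncertain.

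Across libraries the core genes moved nearly as 1 unit. The deviation of each core gene from its mean in each population was correlated with the deviation of the core mean over the 18 libraries. FPKM is relative to each library's own total, so all genes of a library share that scale. The median Pearson r was 0.967, and 72 of 77 genes exceeded 0.9. Among the least alike were Rpl31 (r 0.782), Rpl10 (r 0.818) and Rps27 (r 0.879). Outside the rule, the genes most like the core mean included Rack1, a protein of the small subunit (r 0.989), the pseudogene Rps15a-ps6 (r 0.966), Naca, the alpha chain of the complex that binds nascent chains (r 0.961), and Glrx3, a glutaredoxin (r 0.958). These correlations are descriptions.

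**Figure D2:**
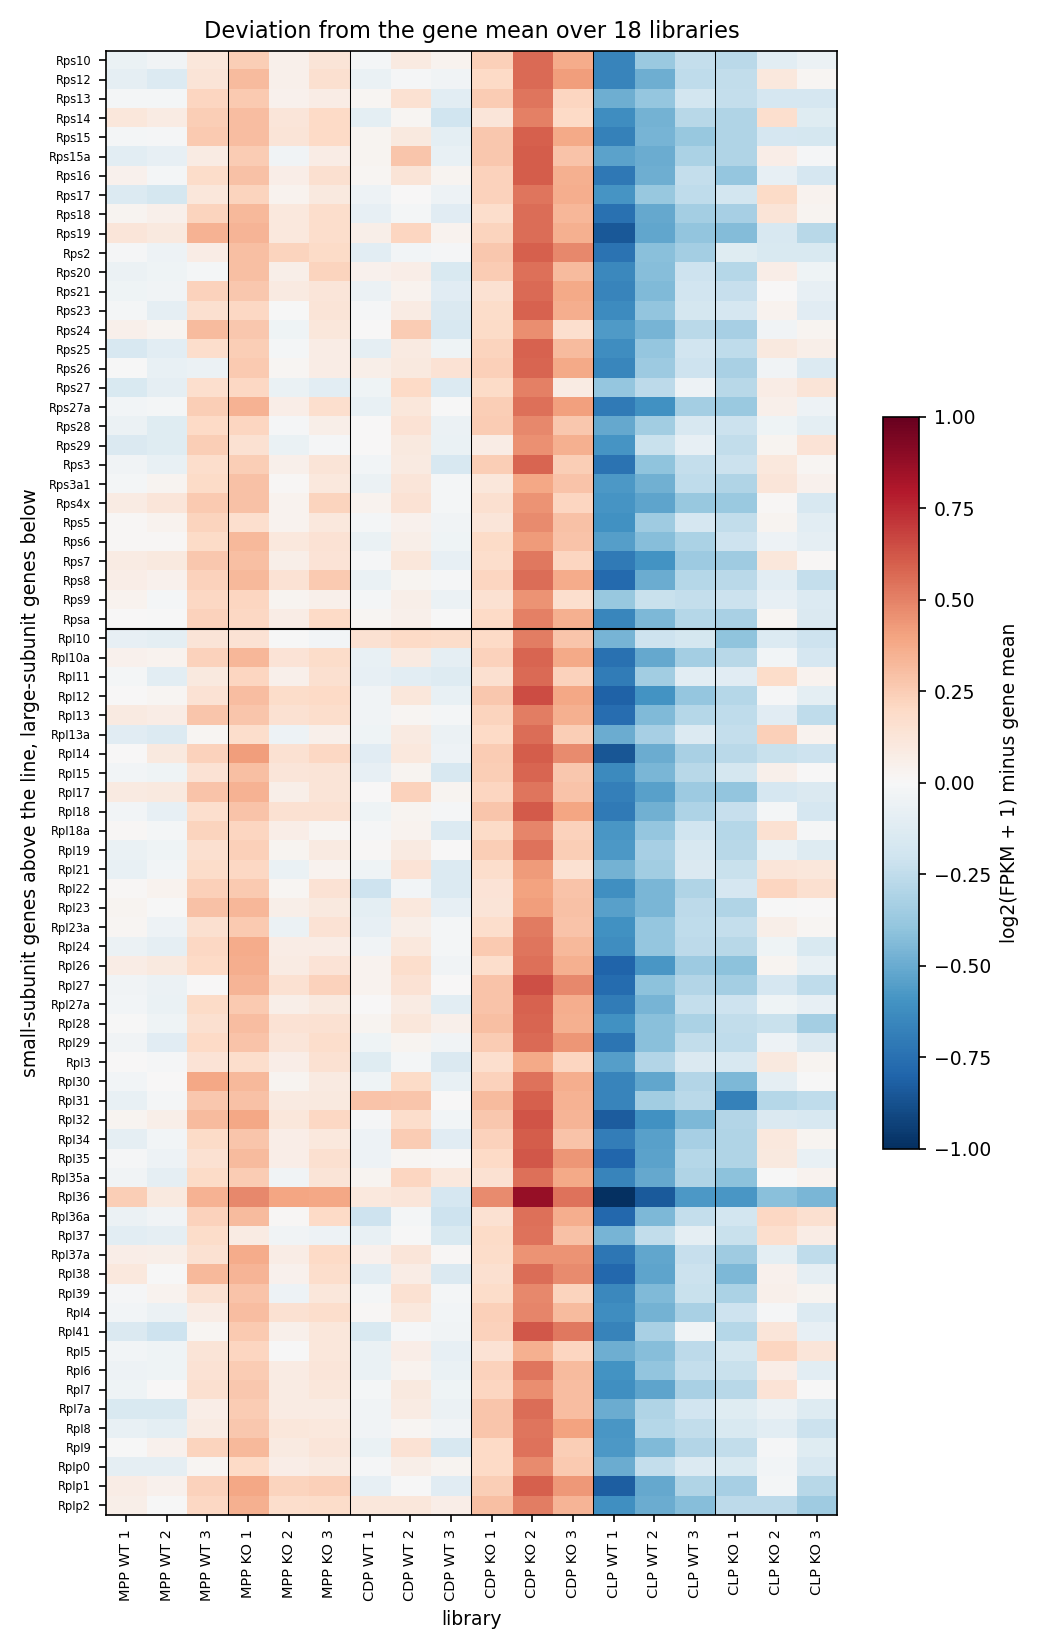
Deviation of core genes (rows) from their own mean over the 18 libraries (columns, by population and genotype), in log2(FPKM + 1). The WT CLP columns are low and the KO CDP columns high for nearly every gene, while Rpl36 ranges more widely than the others.

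The populations were first compared among WT libraries. WT CLPs held less mRNA of both ribosomal subunits than WT MPPs, relative to all mRNA. Of the 86 ribosomal protein genes that passed the filter of a mean of 0.5 FPKM over all libraries, 68 (79.1%) were lower in CLPs at an adjusted p of at most 0.05 in limma, when 14.7% of the 12421 genes tested were lower. Rpl3l was the only one higher, when 10.5% of all genes were. The median difference was -0.48 on the log2(FPKM + 1) scale for small subunit genes and -0.50 for large subunit genes, against -0.05 for all genes. Medians were also taken by transcript length, for genes averaging 100 FPKM or more. Other genes had -0.16 up to 700 bases, -0.06 up to 1000, -0.11 up to 1500, -0.02 up to 2500 and 0.06 above that. Ribosomal protein genes had -0.50, -0.51, -0.49, -0.48 and -0.39, the last of 1 gene. The part of length was not tested. With quantile normalization the median over the ribosomal protein genes was -0.17, with 40 called lower and 5 higher, when 14.9% and 13.7% of all genes were. On the FPKM scale, the ratio of CLP to MPP means had a median of 0.714 over the 77 core genes and ran from 0.488 for Rpl36 to 0.866 for Rps27. The 3 libraries of each group did not overlap for 76 of the 86 genes (88.4%), against 31.1% of all genes. The populations came in separate tables, so population and table cannot be told apart, and in sorted bulk samples fewer cells of a type and less RNA per cell cannot be told apart either. Without MPP WT library 3, 42 genes were called, when 10% of all genes were lower, and without CLP WT library 1, 48, when 13.3% were.

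Rpl36, a protein of the large subunit (chromosome 17, 56610094 to 56614246), differed most among the core genes. Its levels were 994, 898 and 1068 FPKM in WT MPPs and 412, 469 and 564 in WT CLPs. Every CLP library lay below every MPP library, and the difference was -1.04 (SE 0.13, adjusted p = 2.45e-05, limma). Among KO libraries, Rpl36 was at 1171, 1106 and 1099.5 FPKM in MPPs and 562, 627 and 610.0 in CLPs, a difference of -0.91 (SE 0.13, adjusted p = 0.000292).

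Rps19, a small subunit protein mutated in Diamond-Blackfan anaemia (chromosome 7, 24884592 to 24889811), stood at 2005, 1981 and 2353 FPKM in WT MPPs and at 1026, 1287 and 1402 in WT CLPs. The groups were well apart, with a difference of -0.78 (SE 0.13, adjusted p = 0.000321). Rpl32, an abundant protein of the large subunit, was at 2788, 2840.1 and 3408 FPKM in WT MPPs and 1531, 1791 and 2001 in WT CLPs, a difference of -0.77 (SE 0.12, adjusted p = 0.000317). Rps6, the substrate of the S6 kinases, differed by -0.51 (SE 0.09, adjusted p = 0.000834), and Rpl38, a large subunit protein known for its part in the translation of Hox mRNAs, by -0.65 (SE 0.16, adjusted p = 0.00704).

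Rpl5 and Rpl11 bind the 5S ribosomal RNA and, when free, the p53 ligase MDM2. Rpl5 was at 807, 800.4 and 903 FPKM in WT MPPs and 587, 615 and 686 in WT CLPs, and its difference of -0.41 (SE 0.11) had an adjusted p of 0.0101 in limma, which became 0.0533 without MPP WT library 3. Rpl11 was at 1684, 1579 and 1821 FPKM in WT MPPs and 1049, 1335 and 1587 in WT CLPs. Its highest CLP library slightly exceeded its lowest MPP library, and the difference of -0.37 (SE 0.14) missed the threshold (adjusted p = 0.0576). Rps27, at 1513, 1588 and 1899 against 1292, 1408 and 1631 FPKM, overlapped as well (-0.21, SE 0.15, adjusted p = 0.346). Both changed sign with quantile normalization, to 0.027 for Rpl11 and 0.18 for Rps27. Rplp0, the stalk protein that anchors Rplp1 and Rplp2, was at 2388, 2389 and 2569 FPKM against 1796, 2153 and 2304, without overlap but not called. Rpsa, which is also known as a laminin receptor, was called lower, at 2011, 2001 and 2351 FPKM against 1276, 1472 and 1647. Rps27a, made as a fusion with ubiquitin, was called lower as well, at 1212, 1218 and 1465 against 756, 810.2 and 973, and so was Rpl10a, at 1554, 1549 and 1774 against 901, 1058 and 1194.

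The cell type markers of the CLP and MPP libraries differed strongly at the same time. Of the 8 B cell markers, all 8 were higher in WT CLPs than in WT MPPs, with sums of 308, 628 and 885 FPKM against 55.4, 55.1 and 61.6. Of the 9 neutrophil markers, 8 were lower, with sums of 469.6, 993 and 424 FPKM against 3481, 3589 and 3606, and all 8 erythroid markers tested of 10 were lower. Of the 7 DC markers, 6 were higher, with sums of 1982, 1981 and 1788 FPKM against 189.5, 179 and 201. Irf8 was the most abundant DC gene in WT CLPs, Cd79a or Vpreb1 the most abundant B cell gene there, and Mpo or S100a9 the most abundant neutrophil gene in WT MPPs, and no marker of these 3 lists was at 0 in either group. Of the 12 genes of activation and stress, 2 were lower in WT CLPs, with sums of 5111, 10013 and 12122 FPKM against 12020.5, 11415.6 and 11268.5. The part of these differences in the levels of ribosomal protein genes was not tested.

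WT CDPs lay near WT MPPs and above WT CLPs. Against MPPs, Rpl37rt was the only gene of 86 called higher and none was called lower, when 5.36% and 15.4% of all genes were called in these directions by limma. At an unadjusted p under 0.05, 2 genes were higher and 0 lower, against 10.7% and 24.5% of all genes. Without CDP WT library 3, Rpl3l was the only gene called, when 10.8% of all genes were higher and 24.1% lower. The ratio of CDP to MPP means had a median of 0.966 over the core genes, from 0.849 for Rps14 to 1.14 for Rpl10, with 24 genes above 1 and 53 below. Over the settings tried the median difference ran from -0.09 to 0.08 on the log2 scale, so its direction was not stable. Rpl37rt was at 171, 180.5 and 179 FPKM in WT MPPs and 219, 219 and 232 in WT CDPs (0.33, SE 0.11, adjusted p = 0.0376), a call lost when any of these 6 libraries was left out, with adjusted p-values of 0.0615 to 0.117. Rpl10, a protein that joins the large subunit late, was at 1936, 1917 and 2237 FPKM in MPPs and 2280.1, 2355 and 2325 in CDPs. It did not overlap but missed the threshold (0.20, SE 0.11, adjusted p = 0.202), as did Rps14, a small subunit gene lost in the 5q- syndrome (-0.24, SE 0.13, adjusted p = 0.2). Markers of other cells differed here too: 6 of 7 DC and 3 of 7 monocyte markers were higher in WT CDPs, and 5 of 9 neutrophil markers and all 8 erythroid markers tested were lower. Of the 12 genes of activation and stress, 5 were lower in WT CDPs. These summed to 6188, 4502 and 6969 FPKM against 12020.5, 11415.6 and 11268.5 in WT MPPs. The part of these lists in the levels of ribosomal protein genes was not tested.

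Against WT CLPs, 58 of the 86 genes (67.4%) were higher in WT CDPs, when 3.12% of all genes were, and none was lower, when 7.53% were (limma). At an unadjusted p under 0.05, 75 were higher and 0 lower, against 9.69% and 18.9% of all genes. The libraries did not overlap for 76 genes, 88.4%, against 8.4% of all genes. With quantile normalization the median over the ribosomal protein genes changed from 0.44 to 0.14, and 32 were called higher, when 4.45% of all genes were. Rpl36, at 905, 915 and 748 FPKM in CDPs, was higher by 0.83 (SE 0.13, adjusted p = 0.000866), and Rps19, at 1922, 2139 and 1895 FPKM, by 0.69 (SE 0.13, adjusted p = 0.0031). Rpl37rt was higher by 1.06 (SE 0.11, adjusted p = 2.09e-05), with 97.0, 108 and 116 FPKM in CLPs. When 1 library was left out, the count was 20 without CLP WT library 1, 31 without CLP WT library 2, 64 without CLP WT library 3, 33 without CDP WT library 1, 24 without CDP WT library 2 and 58 without CDP WT library 3, when 1.39% to 7.23% of all genes were higher. Cell type markers differed between these libraries as well: 6 of 8 B cell markers were lower in WT CDPs, with sums of 76.5, 133 and 48.2 FPKM against 308, 628 and 885, and 4 of 7 DC markers were lower, with sums of 879, 530.2 and 1182 against 1982, 1981 and 1788. Of the 9 neutrophil markers 2 were higher, with sums of 695, 756 and 4510.3 FPKM against 469.6, 993 and 424, as were 2 of 7 monocyte markers. The part of these in the difference of the ribosomal protein genes was not tested. This comparison shares the WT CLP libraries with the preceding ones.

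The same comparisons were made between the KO groups, in the fit of all 18 libraries that also gave the WT differences and so with 1 estimate of spread. Among the KO libraries, 24 of 86 genes (27.9%) were lower in CLPs than in MPPs, when 7.34% of all genes were, and 68 were higher in CDPs than in CLPs, when 6.68% were. Rpl36 was again the core gene with the greatest difference between CDPs and CLPs, with 1163, 1534 and 1221 FPKM in KO CDPs (1.11, SE 0.13, adjusted p = 0.000363). Rpl31 followed, at 973, 1179.7 and 991 FPKM in KO CDPs and 487, 642 and 655 in KO CLPs (0.82, SE 0.14, adjusted p = 0.00229). Rpl32l was the only one lower, when 17.7% of all genes were, and did not exceed 1.50 FPKM in any library. The counts were 3 for CLPs against MPPs without MPP KO library 1, 5 without CLP KO library 1 and 9 without CLP KO library 3, when 3.51%, 4.63% and 4.15% of all genes were lower. They were, for CDPs against CLPs in the higher direction, 36 without CDP KO library 2, 40 without CLP KO library 1 and 66 without CDP KO library 3, whose neutrophil markers stood apart, when 2.92%, 3.98% and 9.05% of all genes were. With quantile normalization 13 were lower and 1 higher in CLPs than in MPPs, when 8.36% and 10.5% of all genes were, and 21 were higher in CDPs than in CLPs, when 6.74% were.

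Cell type markers differed between the KO populations at the same time. All 8 B cell markers were higher in KO CLPs than in KO MPPs, with sums of 245, 571 and 574 FPKM against 32.0, 17.4 and 31.7, and 7 of 9 neutrophil markers were lower, with sums of 241, 414 and 371 against 2584, 1565 and 1649. Between KO CDPs and KO CLPs, 6 of 9 neutrophil markers were higher, with sums of 1063, 796 and 4443 FPKM in CDPs, as were 3 of 7 monocyte markers, and 4 of 8 B cell markers were lower, with sums of 210, 143 and 36.7 in CDPs. Their part in the levels of ribosomal protein genes was not tested.

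Between KO CDPs and KO MPPs limma called 0 genes, when 0.668% of all genes were called higher and 3.42% lower. At an unadjusted p under 0.05, 17 were higher (19.8%, against 4.11% of all genes) and 1 lower (1.16%, against 11.6%). Deviations of same-numbered KO CDP and KO MPP libraries had r values of 0.35, 0.58 and 0.74. A fit with 1 effect of replicate number, shared by all 18 libraries, called 1 gene higher, when 0.853% of all genes were. This was Rps27l, at 120.1, 91.0 and 125 FPKM in KO MPPs and 129.9, 158 and 202 in KO CDPs (0.53, SE 0.14, adjusted p = 0.0482, or 0.128 without the block). The shared effect also covered the CLP libraries, whose r values with MPPs in KO were -0.18, -0.28 and -0.15. It therefore did not pair CDPs and MPPs alone.

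**Figure D3:**
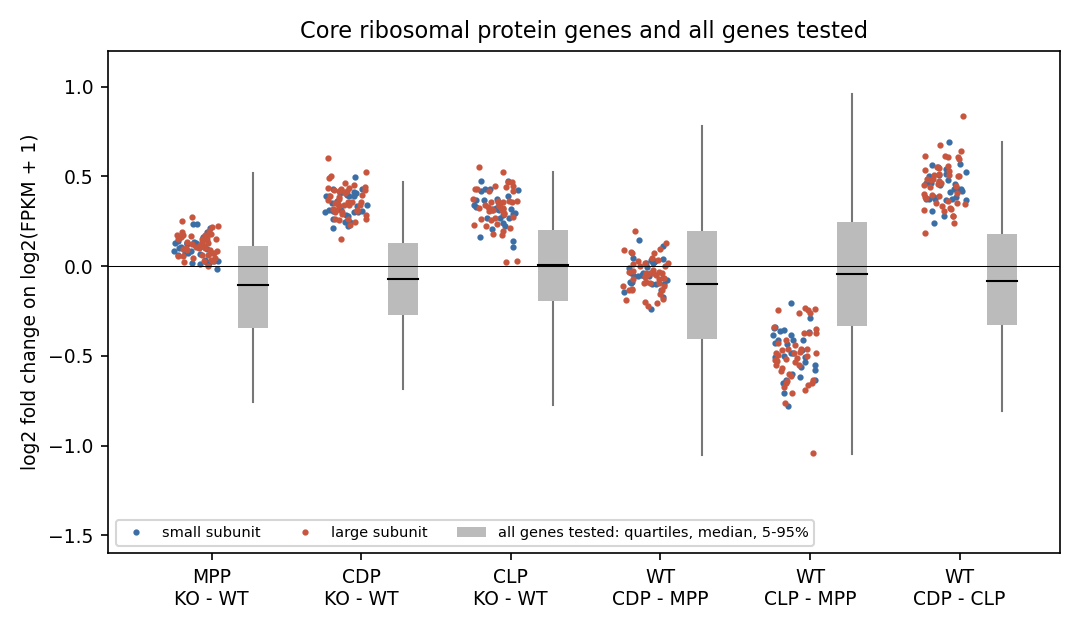
Differences on the log2(FPKM + 1) scale for the 77 core genes by subunit, for the KO-WT comparison in each population and for the WT populations, each point 1 gene, beside all genes tested (line: median, box: quartiles, whiskers: 5% to 95%). Both subunits shift together, by a median of -0.48 and -0.50 in WT CLPs against WT MPPs and by 0.33 and 0.36 in KO against WT CDPs.

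In CDPs, ribosomal protein genes were higher in KO than in WT libraries, but none passed the test without pairing. The fitted difference was positive for 85 of the 87 genes tested, with a median of 0.33 on the log2(FPKM + 1) scale for the small subunit and 0.36 for the large subunit, against -0.07 for all genes. Quantile normalization lowered the median over the ribosomal protein genes from 0.35 to 0.08, against 0.01 for all genes. On the FPKM scale, the KO mean exceeded the WT mean for all 77 core genes, by a median ratio of 1.28, from 1.11 for Rpl10 to 1.53 for Rpl36. All 3 KO libraries lay above all 3 WT libraries for 70 of the 87 genes (80.5%), against 7.68% of all genes, and for 72 genes without the CDP libraries numbered 3, when 19.9% of all genes did so with 2 libraries a group. Limma called 0 genes higher and 0 lower, when 0.0409% and 0.0654% of all genes were called, while 64 (73.6%) were higher and 0 lower at an unadjusted p under 0.05, against 4.54% and 5.99% of all genes. Libraries with the same number deviated together in CDPs, and a fit blocked on replicate number called 37 genes (42.5%) higher, when 3.78% of all genes were. Without the libraries numbered 3, the block left 0 calls, when 1.25% of all genes were higher.

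Rpl36 in CDPs was at 905, 915 and 748 FPKM in WT and 1163, 1534 and 1221 in KO. The groups were apart, with a difference of 0.60 (SE 0.15, adjusted p = 0.306 in limma, 0.0277 with the replicate block). Rpl41, which encodes the shortest protein of the large subunit (chromosome 10, 128548110 to 128549168), was at 2747, 3039 and 2983 FPKM in WT and 3583, 4701 and 4399.9 in KO (0.52, SE 0.12, adjusted p = 0.284, 0.0265 with the block). Rps2, which lies near the mRNA entry channel (chromosome 17, 24718121 to 24721927), was at 2984, 3143 and 3182 FPKM in WT and 3851, 4859.5 and 4469 in KO. All its KO libraries were higher (0.50, SE 0.11, adjusted p = 0.253, 0.0297 with the block). With quantile normalization the differences were 0.42 for Rpl36, 0.15 for Rpl41 and 0.07 for Rps2.

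Rps19, Rpl5 and Rpl11, the genes of Diamond-Blackfan anaemia named above, were not called in CDPs. Rps19 was at 1922, 2139 and 1895 FPKM in WT CDPs and 2158, 2728 and 2363 in KO CDPs (0.28, SE 0.12, adjusted p = 0.479, 0.0865 with the block), a difference that became -0.032 with quantile normalization. Rpl5 was at 787, 862 and 779 FPKM in WT and 909.6, 1055 and 956 in KO (0.27, SE 0.10, adjusted p = 0.456, 0.084 with the block). Rpl11 was at 1608, 1587 and 1559 FPKM in WT and 1902, 2523 and 2000.4 in KO (0.42, SE 0.13, adjusted p = 0.367, 0.0578 with the block). For all 3, each KO library exceeded each WT library, and none passed the test. With quantile normalization Rpl11 differed by 0.11. The KO to WT ratio of libraries with the same number had medians of 1.19, 1.37 and 1.29 over the core genes for numbers 1, 2 and 3, and all 77 genes were higher in KO in each.

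Markers of other cells moved with genotype in the same CDP libraries. The 7 DC markers summed to 879, 530.2 and 1182 FPKM in WT CDPs and 216, 232 and 411 in KO CDPs, and 1 of the 7 was called lower, or 6 with the replicate block. Irf8 was the most abundant of them in WT, Bst2 or Irf8 in KO, and Cd209a was at 0 in all 3 KO libraries. The 7 monocyte markers summed to 294, 185 and 1517 FPKM in WT and 52.4, 40.2 and 256 in KO, with none called, or 6 lower with the block. In WT library 3, Ly6c2 was the most abundant of them at 709 FPKM. Their part in the difference of the ribosomal protein genes was not tested.

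Outside the rule, the KO-WT difference in CDPs was also described by transcript length, as medians with no test; limma called 5 of the 12229 genes higher there. Among abundant genes, those averaging 100 FPKM or more, the median KO-WT difference of other genes was 0.30 for transcripts of up to 700 bases, 0.22 up to 1000, 0.21 up to 1500, 0.15 up to 2500 and 0.02 above that. The ribosomal protein genes, whose core transcripts had a median length of 830 bases, gave 0.36, 0.36, 0.34, 0.33 and 0.35 in these bins, the last of only 2 genes. In CLPs, other genes stood at 0.04, -0.05, -0.02, 0.01 and 0.00 in the same bins, and ribosomal protein genes at 0.34, 0.31, 0.32, 0.42 and 0.34, the last of 1 gene. In CDPs the ribosomal protein genes were nearest to other genes in the shortest bin, 0.36 against 0.30, and farther above them in the longer ones. The part of length in the CDP difference was not tested further.

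**Figure D4:**
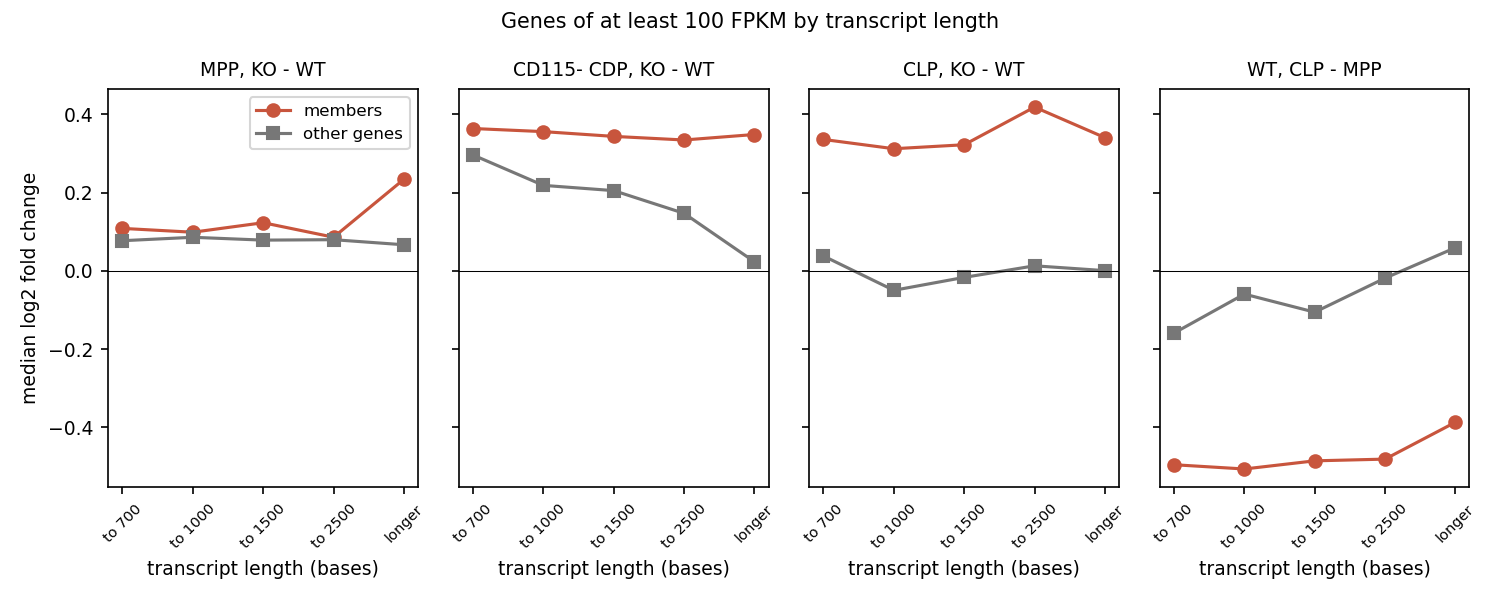
Median difference on the log2(FPKM + 1) scale by transcript length (bases), for ribosomal protein genes and for other genes averaging 100 FPKM or more. Panels show KO-WT in each population and WT CLPs against WT MPPs. For KO-WT in CDPs other genes fall from 0.30 in the shortest bin to 0.02 in the longest. For KO-WT in CLPs they stay between -0.05 and 0.04 and ribosomal protein genes between 0.31 and 0.42.

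In CLPs, ribosomal protein genes were also higher in KO libraries, and 2 passed the test. Of 86 genes tested, 83 had a positive difference, with a median of 0.32 for the small subunit and 0.33 for the large subunit, against 0.01 for all genes. Quantile normalization lowered the median over the ribosomal protein genes from 0.32 to 0.12, against 0.05 for all genes, and 23 genes were then called higher and 1 lower, when 7.81% and 8.64% of all genes were. On the FPKM scale, all 77 core genes had a higher KO mean, by a median ratio of 1.25, from 1.02 for Rpl31 to 1.46 for Rpl36a. Rpl37rt and Rpl22 were called higher, when 5.41% of all genes were, and 0 were called lower, when 8.92% were (limma). At an unadjusted p under 0.05, 35 (40.7%) were higher and 1 lower, against 13.4% and 16.2% of all genes. The KO libraries lay above all WT libraries for 35 genes (40.7%), against 15.3% of all genes. Same-numbered CLP libraries deviated together less than in CDPs, with r values of 0.41, 0.34 and 0.14. A fit blocked on replicate number called 19 genes (22.1%) higher and 1, Rps4l, lower, when 8.44% and 12.5% of all genes were. Without the CLP libraries numbered 1, 12 genes were higher and 1 lower, when 10.1% and 10.7% of all genes were, or 8 and 1 with the block, when 12.6% and 13.1% were. With that block 9.3% of the ribosomal protein genes were called higher. The WT CLP libraries, the lowest of the series, entered both this comparison and those between WT populations.

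Rpl22, a large subunit protein that binds RNA and whose loss halts the development of alpha-beta T cells in mice (chromosome 4, 152324436 to 152334082), was at 165, 184 and 205 FPKM in WT CLPs and 225, 293 and 283 in KO CLPs. The KO libraries were all higher, with a difference of 0.53 (SE 0.14, adjusted p = 0.0359 in limma). The adjusted p was 0.0576 without WT library 1, 0.114 without WT library 2, 0.131 without KO library 2 and 0.123 without KO library 3. Rpl37rt, a copy of Rpl37 (chromosome 5, 115102922 to 115110268), was at 97.0, 108 and 116 FPKM in WT and 139, 159 and 160.3 in KO (0.51, SE 0.11, adjusted p = 0.0176), and its adjusted p was 0.0635 without WT library 2, 0.0762 without KO library 2 and 0.0705 without KO library 3.

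Rpl36a, a large subunit protein near the site where deacylated tRNA leaves (chromosome X, 134585654 to 134588062), had the greatest difference of the core genes in CLPs. It was at 628, 795 and 917 FPKM in WT and 955, 1253 and 1209 in KO, without overlap (0.55, SE 0.17, adjusted p = 0.0708, 0.0124 with the block). Rps4l went the other way, at 17.1, 21.5 and 12.0 FPKM in WT and 12.8, 7.70 and 9.38 in KO (-0.70, SE 0.23, adjusted p = 0.0786, 0.0402 with the block). By number, the KO to WT ratio had medians of 1.28, 1.36 and 1.13 over the core genes, with 76, 77 and 72 of 77 genes higher in KO.

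The CLP libraries also differed in cell type markers. All 7 DC markers were lower in KO, with sums of 1982, 1981 and 1788 FPKM in WT and 282, 256 and 239.7 in KO, with Irf8 the most abundant in all 6 libraries, and Cd209a or Clec9a at 0 in each KO library. Of 7 monocyte markers, 6 were lower, with sums of 205, 241 and 224 FPKM in WT and 16.8, 26.1 and 29.8 in KO. The 8 B cell markers summed to 308, 628 and 885 FPKM in WT and 245, 571 and 574 in KO, with 1 called higher and none lower, or 1 higher and 3 lower with the replicate block. Of the 10 erythroid markers 7 were tested and 4 were lower, or 6 lower and 1 higher with the block. These 10 summed to 73.4, 53.8 and 62.0 FPKM in WT and 26.5, 39.3 and 40.4 in KO, with Car2 the most abundant except for Hba-a1 in WT library 1. The 9 neutrophil markers summed to 469.6, 993 and 424 FPKM in WT and 241, 414 and 371 in KO, with none called, or 7 lower with the block, and none at 0. Mpo was the most abundant of them except for S100a9 in WT library 2. Of the 12 genes of activation and stress, 0 were called, or 1 lower with the block. The part of these lists in the ribosomal protein gene difference was not tested.

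In MPPs the difference was smallest. The median was 0.10 for the small subunit and 0.12 for the large subunit, against -0.11 for all genes, and 82 of 87 genes had a positive difference. Other abundant genes were also higher: among genes averaging 100 FPKM or more, the median was 0.11 for ribosomal protein genes and 0.08 for other genes. Limma called 0 genes higher and 0 lower, when 0.315% and 3.52% of all genes were called, with 8 (9.2%) higher and 1 (1.15%) lower at an unadjusted p under 0.05, against 4.45% and 19.8% of all genes. Groups did not overlap, with KO higher, for 12 genes (13.8%), against 6.98% of all genes. The ratio of KO to WT means had a median of 1.08 over the core genes, from 0.989 for Rps24 to 1.21 for Rpl27, and 75 of 77 were above 1. By number, though MPP libraries were not taken as paired, the ratio had medians of 1.23, 1.06 and 0.968. Of the 77 core genes, 77, 67 and 20 were higher in KO. Over the settings tried the median difference of the ribosomal protein genes ran from 0.05 to 0.23. Rpl27 was at 899.7, 882 and 925 FPKM in WT MPPs and 1169, 1025 and 1079 in KO MPPs (0.27, SE 0.07, adjusted p = 0.0971), and Rpl41 at 2771, 2652 and 3102 against 3673, 3169 and 3309 (0.25, SE 0.09, adjusted p = 0.165). Without MPP KO library 3, 3 genes were called higher and 2 lower, when 15.5% and 38.8% of all genes were.

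Other programs differed more between the MPP genotypes. Of the 10 erythroid markers, 9 were lower in KO MPPs, with sums of 569.9, 544 and 571 FPKM in WT and 136, 143 and 188 in KO. Car2 was the most abundant of them in all 6 libraries, and Hbb-bs was at 0 in KO libraries 1 and 2. Of 12 genes of activation and stress, 7 were lower, and Fos, an immediate early gene, was at 2590.0, 2468 and 2721 FPKM in WT and 344, 207 and 1188 in KO. Of 7 monocyte markers, 5 were lower, with sums of 153, 159 and 141 FPKM in WT and 78.2, 53.4 and 54.7 in KO, and Ly6c2 the most abundant in all 6 libraries. Of 9 neutrophil markers, 3 were lower, with sums of 3481, 3589 and 3606 FPKM in WT and 2584, 1565 and 1649 in KO, and Mpo or S100a9 the most abundant. Also lower were 2 of the 6 DC markers tested, 2 of 8 B cell markers and 3 of 6 progenitor markers. The part of these in the level of ribosomal protein genes was not tested.

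The KO effect was then compared between populations. In the interaction test over all 18 libraries, limma called 0 of 86 genes, when 2.45% of all genes were called, and 3 (3.49%) had an unadjusted p under 0.05, against 15.8% of all genes. The smallest adjusted p was 0.191, for Rpl37rt, which was higher in KO in CLPs but was at 219, 219 and 232 FPKM in WT CDPs and 214, 265 and 209 in KO CDPs. The test called 1 gene with values scaled to TPM, 2 with quantile normalization and 0 with the replicate block. The shares of all genes called under these settings are not reported here, so these counts are not read as a result about the ribosomal protein genes. With that block, the KO effect in CLPs exceeded that in MPPs for 2 genes, when 9.36% of all genes were called in that direction: Rpl22 (0.48, SE 0.12, adjusted p = 0.0286, or 0.127 without the block) and Rpl22l1 (0.57, SE 0.15, adjusted p = 0.03, or 0.148 without it). The MPP libraries were not taken as paired. Without the block and on FPKM as deposited, the test called no gene.

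The balance between subunits was close to constant. The ratio of small to large subunit FPKM was 0.772 to 0.781 in WT MPPs and 0.755 to 0.765 in KO MPPs, and 0.767 to 0.772 in WT CDPs and 0.754 to 0.757 in KO CDPs, without overlap in either. In CLPs it was 0.772 to 0.789 in WT and 0.770 to 0.788 in KO. Genes with and without a tract of at least 8 letters had like medians: 0.34 and 0.36 for KO-WT in CDPs, 0.36 and 0.31 in CLPs, 0.12 and 0.11 in MPPs, and -0.49 and -0.50 for WT CLPs against WT MPPs, over 32 and 25 core genes. Rpl22, whose start shown above has a short run, lay among the genes called in CLPs.

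Paralogues of core genes were expressed at lower levels, with 1 exception. Rpl22l1, the paralogue of Rpl22 that can replace it in the ribosome (chromosome 3, 28805508 to 28807424), was at 341, 367 and 403 FPKM in WT MPPs, 293, 337 and 272 in WT CDPs and 158, 187 and 220.3 in WT CLPs. It exceeded Rpl22 in MPPs and CDPs. The ratio of Rpl22l1 to Rpl22 was 1.37 ± 0.0432 (SD, n = 3) in WT MPPs, 1.29 ± 0.0958 in WT CDPs and 1.02 ± 0.0579 in WT CLPs, and 1.23 ± 0.0706, 1.27 ± 0.0265 and 0.972 ± 0.0425 in the KO groups. From WT MPPs to WT CLPs, Rpl22l1 differed by -0.98 on the log2(FPKM + 1) scale (SE 0.15, adjusted p = 0.000186) and Rpl22 by -0.55 (SE 0.12, adjusted p = 0.00291). WT CDPs exceeded WT CLPs in Rpl22l1 by 0.68 (SE 0.15, adjusted p = 0.0103).

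**Figure D5:**
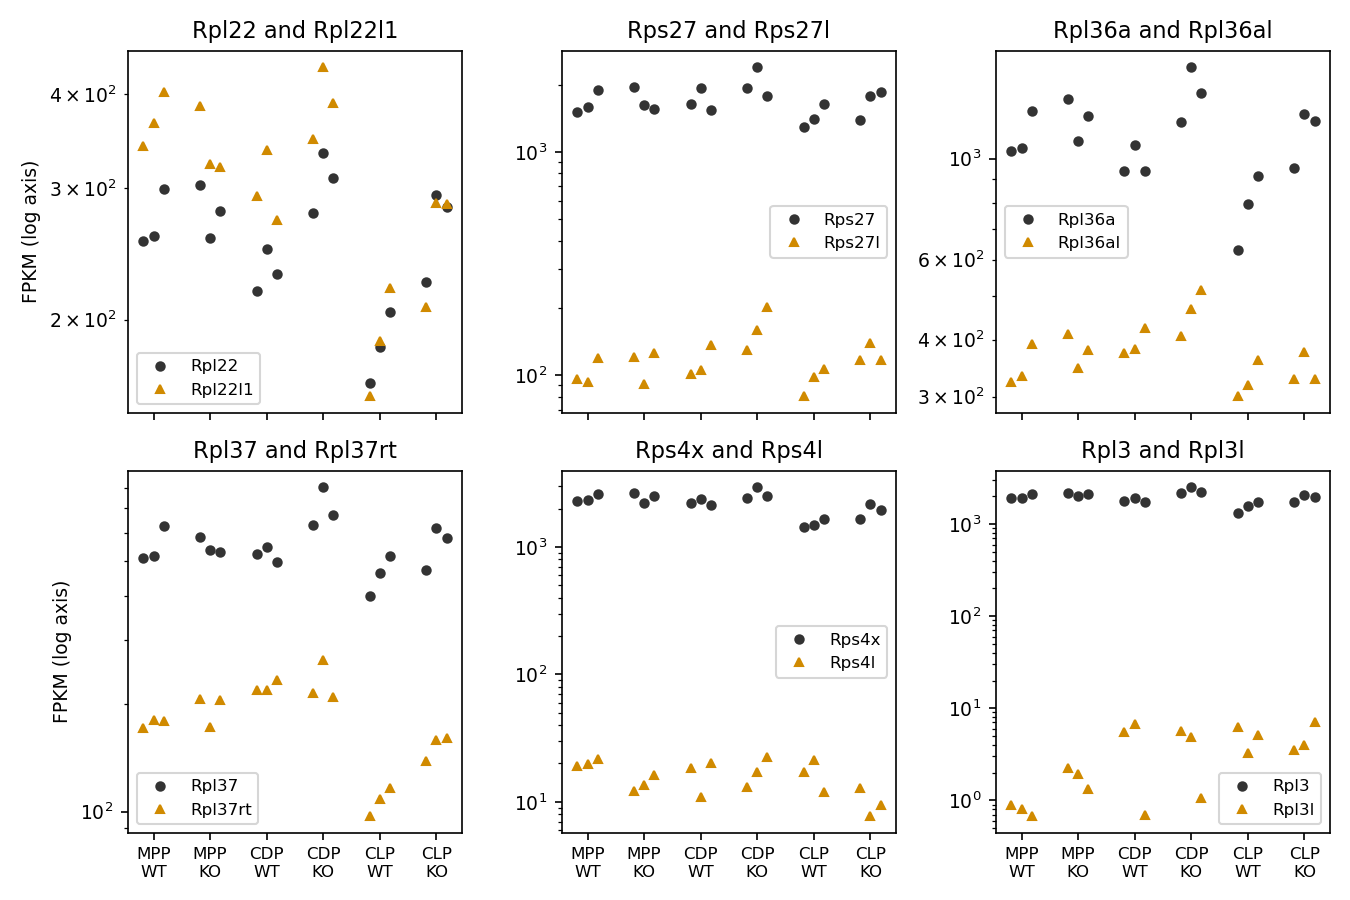
Levels of paralogue pairs in each of the 18 libraries by population and genotype (FPKM, log axis), each point 1 library. Rpl22l1 lies above Rpl22 in MPPs and CDPs and at about its level in CLPs, where the ratio is 1.02 in WT and 0.972 in KO.

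Rpl3l, the paralogue of Rpl3 known from skeletal muscle and heart (chromosome 17, 24727826 to 24736143), was near the bottom of the scale. It was at 0.89, 0.81 and 0.67 FPKM in WT MPPs, 6.18, 3.30 and 5.14 in WT CLPs, and 5.46, 6.71 and 0.69 in WT CDPs. Its lowest value corresponds to about 16.4 reads. It was higher in WT CLPs than in WT MPPs (1.68, SE 0.50, adjusted p = 0.0213), the only gene of the 86 called in that direction, but the call was lost without any 1 of the MPP WT libraries or without CLP WT library 1 or 3, with adjusted p-values of 0.0512 to 0.0739. The CDP libraries numbered 3 were low in both genotypes, with 5.62, 4.86 and 1.07 FPKM in KO CDPs, and in MPPs the KO libraries, at 2.22, 1.95 and 1.34, were above WT (0.65, SE 0.15, adjusted p = 0.0669). Without CDP WT library 3, the difference between WT CDPs and WT MPPs changed from 1.29 (SE 0.50, adjusted p = 0.0791) to 1.98 (adjusted p = 0.00232).

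Rps27l, a p53 target that can take the place of Rps27, was at 96.4, 93.5 and 119.7 FPKM in WT MPPs, 101, 105 and 137 in WT CDPs and 80.3, 98.2 and 106 in WT CLPs, and at 129.9, 158 and 202 in KO CDPs. The WT groups overlapped, as did WT and KO CDPs. Rpl36al was at 324, 333 and 391 FPKM in WT MPPs and 300.5, 318 and 361 in WT CLPs, with overlap, whereas Rpl36a was at 1039, 1055 and 1270.3 in WT MPPs, above all WT CLP libraries. Rps4l, annotated by RefSeq as a transcribed pseudogene (chromosome 6, 148354656 to 148355596), was at 19.0, 19.9 and 21.7 FPKM in WT MPPs and 12.2, 13.4 and 16.4 in KO MPPs, without overlap (-0.51, SE 0.13, adjusted p = 0.0937). Rpl7l1, a protein of the nucleolus, was at 49.4, 50.4 and 54.1 FPKM in WT MPPs and 38.9, 39.0 and 53.7 in KO MPPs (-0.24, SE 0.14, adjusted p = 0.322). Rps19bp1 lay between 16.9 and 39.7 FPKM in all libraries. Rpl39l and Rpl10l, known from the testis, stayed at or below 0.40 FPKM and did not pass the filter, whereas Rpl39 was at 1102, 1142 and 1238 FPKM in WT MPPs. Rps27rt was listed at 0 in all but 3 of the 12 MPP and CDP libraries and was not in the CLP table.

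Genes that work with the ribosome were described from lists, here and in the next paragraphs in fits without the replicate block. Of 19 translation factors and other TOP mRNAs, 12 were lower in WT CLPs than in WT MPPs (median -0.37), when 14.7% of all genes were, and 5 were higher in KO than in WT CLPs (median 0.31), when 5.41% of all genes were, with 0 called in CDPs (median 0.28) or MPPs (median 0.14). Eef1a1, the elongation factor that delivers tRNA, was at 8036, 7958 and 8657 FPKM in WT MPPs and 5821, 5856 and 6001 in WT CLPs (-0.48, SE 0.08, adjusted p = 0.000274), a call lost with quantile normalization. Pabpc1, the poly(A) binding protein, was at 1072, 1030.1 and 949 FPKM against 668, 613 and 630.0 (-0.67, SE 0.07, adjusted p = 8.12e-06). Npm1, a nucleolar chaperone of ribosome assembly, was at 524, 469 and 611 FPKM in WT CLPs and 806, 986 and 965 in KO CLPs, without overlap (0.78, SE 0.14, adjusted p = 0.00815).

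Of 57 genes of ribosome biogenesis, 20 were higher and 0 lower in KO CLPs (median 0.34), when 5.41% and 8.92% of all genes were. In WT CLPs against WT MPPs 9 were lower and 0 higher (median -0.20), a share near the 14.7% of all genes that were lower. In CDPs and MPPs 0 were called in either direction, with medians of 0.27 and 0.13. Ncl, encoding nucleolin, was at 120.3, 90.3 and 116 FPKM in WT CLPs and 179, 173 and 169.8 in KO CLPs (0.68, SE 0.12, adjusted p = 0.00822). Dkc1, the pseudouridine synthase of the nucleolus, was at 38.8, 24.5 and 28.6 FPKM against 59.5, 54.5 and 55.2 (0.88, SE 0.16, adjusted p = 0.00736). Of 19 genes of RNA polymerase I, which transcribes ribosomal RNA, 4 were higher and 0 lower in KO CLPs (median 0.17), against the same shares of all genes.

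Among 17 regulators of ribosomal protein genes and TOP mRNAs, 2 were higher and 1 lower in KO CLPs, when 5.41% and 8.92% of all genes were. Myc, a transcription factor that drives ribosome biogenesis, was at 129, 136 and 122 FPKM in WT CLPs and 224, 226 and 199 in KO CLPs (0.74, SE 0.10, adjusted p = 0.00183), and Mycn was the other one higher. Mycl, of the same family, fell from 33.6, 32.3 and 30.2 FPKM to 3.10, 3.35 and 3.61 (-2.92, SE 0.11, adjusted p = 1.88e-06). Of the p53 target genes, 1 of 9 tested was called in CLPs, Sesn2, which was lower, and 0 of 8 in CDPs and in MPPs, when 0.0409% of all genes were higher and 0.0654% lower in CDPs and 0.315% and 3.52% in MPPs.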

How the data were processed

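Libraries of poly(A) RNA were read as short single ends without strand on the BGISEQ-500. Per the study's methods and the submitters' processing notes, the authors cleaned reads with SOAPnuke, aligned them with HISAT2 2.0.4 (genome mm10) and Bowtie2 2.2.5, and quantified genes with RSEM 1.2.12. The deposited unit is FPKM per gene and library, in 1 table per population; pooled or comparison columns of the authors were not used. Reads of overlapping genes on opposite strands cannot be told apart.

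FPKM values were fitted as log2(FPKM + 1) with limma 3.58.1 (mean-variance trend) in R 4.3.3, over genes averaging 0.5 FPKM or more, and p-values were Benjamini-Hochberg adjusted over all genes fitted. KO-WT differences were fitted within a population, population differences and the interaction over all 18 libraries. No count test was run on these values. Calls are at an adjusted p of at most 0.05. Of the 89 genes, 87 passed the filter in MPPs and in CDPs, 86 in CLPs and 86 over all libraries.

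Replicate numbers were checked for pairing by correlating deviations from group means of same-numbered libraries. Between WT and KO, the r values were 0.44, 0.68 and 0.79 in CDPs and 0.41, 0.34 and 0.14 in CLPs. CLP WT library 3 was more like another KO library than like KO library 3, so pairing in CLPs is uncertain. Blocked counts of the ribosomal protein genes and most marker lists, and blocked values for some named genes, are therefore given there. Trim33, the lists of genes that work with the ribosome and the mitochondrial list are given without the block. The block moved the CDP count of ribosomal protein genes from 0 to 37. Counts of 0 given without it hold for the unpaired fit. CDPs and MPPs gave 0.15, 0.38 and 0.37 in WT and 0.35, 0.58 and 0.74 in KO. CLPs showed no such pairing. With MPPs they gave 0.12, -0.18 and 0.17 in WT and -0.18, -0.28 and -0.15 in KO. With CDPs they gave 0.17, -0.20 and 0.03 in WT and 0.03, -0.08 and -0.16 in KO. In comparisons between populations the block was 1 effect of replicate number shared by all 18 libraries. The genes and lists were chosen with earlier results of these data known. Named genes are, by rule, those called or most different in a comparison, the most and least abundant, the paralogue pairs, known disease genes and the called members of each list. Scripts were tested on simulated data. Alternatives covered the pseudocount, filter, scaling, trend, block and leaving out each library. Sequences are from RefSeq. Some items of the lists are not reported here.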

Additional observations from a re-analysis of the deposited data

How the results depend on the processing

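Medians over the ribosomal protein genes kept their sign under every setting in the KO-WT comparisons (0.05 to 0.23 in MPPs, 0.08 to 0.41 in CDPs and 0.12 to 0.42 in CLPs), in WT CLPs against WT MPPs (-0.57 to -0.17) and in WT CDPs against WT CLPs (0.14 to 0.54), but not in WT CDPs against WT MPPs (-0.09 to 0.08). Counts of genes called moved more. With a fold minimum of 1 on the log2 scale they were 0 for KO-WT in CLPs, 0 for WT CDPs against MPPs, 2 for WT CLPs against MPPs and 1 for WT CDPs against CLPs. With values scaled to TPM, 2 were higher for KO-WT in MPPs and 10 in CLPs, when 0.409% and 3.36% of all genes were. For WT CDPs against MPPs 2 were then higher, when 5.13% of all genes were, and the interaction called 1. Shares of all genes with the fold minimum, and for the interaction under these settings, are not reported here. For KO-WT in CLPs, 1 gene was higher with no filter, 1 with median-ratio scaling and 20 when libraries were scaled to the other genes. The shares of all genes higher in these settings were 2.75%, 5.63% and 6.08%. For WT CDPs against MPPs, 0 were called without the trend, when 5.21% of all genes were higher and 15.5% lower. Quantile normalization gives all libraries 1 distribution by construction, and 59 to 71 of the 100 highest genes of each are ribosomal protein genes. Under it the counts were 1, 24, 5, 45, 32 and 2 for KO-WT in MPPs and CLPs, WT CDPs against MPPs, WT CLPs against MPPs, WT CDPs against CLPs and the interaction, and the share differed by 1.03 points in CDPs and 1.72 in CLPs. The 1 gene in MPPs was higher, when 0.477% of all genes were. For WT CDPs against MPPs 4 were higher and 1 lower, when 9.33% and 12.2% of all genes were. Rpl11 (0.027) and Rps27 (0.18) in WT CLPs against MPPs and Rps19 (-0.032) for KO-WT in CDPs then changed sign, and 14 genes were called for KO CLPs against KO MPPs and 22 for KO CDPs against KO CLPs, both added after the data were seen.

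The fit blocked on replicate number called 37 genes in CDPs, 20 in CLPs (13 without both CLP libraries numbered 1 and no block, 9 with the block), 0 in the interaction and 1 for KO CDPs against KO MPPs. In MPPs same-numbered libraries had r values of 0.02, 0.48 and 0.47, so the numbers were not taken to pair them, and the block called 0 genes there. The CLP values of 0.41, 0.34 and 0.14 were not clearly stronger, so the blocked CLP counts rest on an uncertain pairing. Leaving out 1 library gave 0 to 5 calls for KO-WT in MPPs, 0 to 0 in CDPs, 0 to 6 in CLPs, 0 to 1 for WT CDPs against MPPs, 42 to 72 for WT CLPs against MPPs, 20 to 64 for WT CDPs against CLPs, 0 to 0 for KO CDPs against KO MPPs, 3 to 21 for KO CLPs against KO MPPs, 37 to 67 for KO CDPs against KO CLPs and 0 to 0 for the interaction, and share differences of 1.07 to 2.48, 3.20 to 5.30 and 3.60 to 5.12 points. Where this leaves 2 libraries in a group, they carry its spread. The causes were not tested. The depth of about 19200000 reads or more bears on low genes: the lowest Rpl3l value rests on about 16.4 reads.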

Other observations

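The 77 mitochondrial ribosomal protein genes, which serve translation in the organelle, were compared in the same fits. In KO against WT CDPs, 75 of 77 had a positive difference with a median of 0.29, but limma without the replicate block called 0. In MPPs the median was 0.03 with 0 called. In CLPs the median was 0.05, with 1 gene called higher and 0 lower, when 5.41% and 8.92% of all genes were. Medians of all genes were -0.07, -0.11 and 0.01 in CDPs, MPPs and CLPs. Against WT MPPs, 4 were lower and 0 higher in WT CLPs, with a median of -0.19 against -0.05 for all genes, and 14.7% and 10.5% of all genes were called in these directions.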
